A study of Mus musculus with 72 samples.

Results

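The data describe 10 mouse genes of phospholipid and fatty acid remodeling, of 55401 genes in the deposited tables: *Pla2g7*, *Agpat3*, *Lpin1*, *Fads1*, *Fads2*, *Fads6*, *Elovl5*, *Fasn*, *Scd1*, and *Scd2*. They were taken by symbol and Ensembl ID, each matched 1 gene, and the 10 genes passed the filter on low values in every tissue. *Pla2g7*, *Agpat3*, and *Fads6* were selected on their normalized counts in 10-week gastrocnemius, where the study names them, so the 10-week values of the members are given as a description, with no *P*. The tests below come from the 40-week muscle, the GFP vector experiment, and the other tissues. In the 40-week muscle tests the spread was estimated over the 10-week libraries as well. The *P* values of *Pla2g7*, *Agpat3*, and *Fads6* there are therefore not fully free of the choice. Changes between ages are tested only for the members other than *Pla2g7*, *Agpat3*, and *Fads6*. Their 10-week side was known when the members were chosen.

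Poly(A) RNA was sequenced from male mice. WT mice were littermates of the *Bmal1*-KO mice, which lack the clock gene *Bmal1* (*Arntl* in the tables) in every tissue. KO+AAV mice were *Bmal1*-KO mice given AAV9 at postnatal day 5, carrying HA-tagged *Bmal1* cDNA behind CK6, a muscle-specific promoter, so the vector was designed to restore the factor in muscle and not elsewhere. Gastrocnemius, a calf muscle of mostly fast fibers, gave 6 WT, 6 KO, and 7 KO+AAV libraries at 10 weeks and 5 of each at 40 weeks. Liver, heart, white fat, and lung gave 4 KO and 4 KO+AAV libraries each at 40 weeks, and no WT. Tissue was taken at ZT1, 1 hour after lights on. In a separate experiment, 3 KO libraries with AAV9-CK6-GFP (KO+GFP) were compared with 3 untreated KO libraries (KO-Control) of 10-week gastrocnemius, and the labels give no hour of collection for these. The labels number the libraries of a group and do not name animals, so a *P* value measures the spread between these libraries.

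Membrane phospholipids are built by adding fatty acids to a glycerol backbone and are then edited, a phospholipase cutting a chain off and an acyltransferase putting another back. *Pla2g7* encodes a secreted phospholipase A2 that hydrolyzes platelet-activating factor and short-chain oxidized phospholipids. *Agpat3* encodes an acyltransferase that puts a fatty acid on lysophosphatidic acid and other lysophospholipids, with a preference for polyunsaturated chains such as docosahexaenoic acid. *Lpin1* encodes lipin 1, the phosphatidate phosphatase that makes diacylglycerol for triglycerides and phospholipids in muscle and fat. *Fads1* and *Fads2* encode the delta-5 and delta-6 desaturases and *Elovl5* an elongase, which together turn dietary essential fatty acids into long polyunsaturated ones, and *Fads6* is a member of the desaturase family whose substrate is less well defined. *Fasn* encodes fatty acid synthase, which makes palmitate, and *Scd1* and *Scd2* encode stearoyl-CoA desaturases, which make monounsaturated fatty acids.

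The promoters are shown for the members whose muscle levels are followed most closely below and for *Elovl5*, whose promoter holds the E-box CACGTG, the sequence that BMAL1 and CLOCK are known to bind. They are RefSeq sequences on GRCm38.p6, read 5′ to 3′ on the strand of the gene and limited to bases of the 250 before the RefSeq start that lie outside annotated exons. Capitals mark a motif match.
Pla2g7, chr17:43568201-43568268, plus strand, from 250 to 183 bases before the start: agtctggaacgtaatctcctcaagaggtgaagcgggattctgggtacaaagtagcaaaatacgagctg
Agpat3, chr10:78351712-78351802, minus strand, from 102 to 12 bases before the start: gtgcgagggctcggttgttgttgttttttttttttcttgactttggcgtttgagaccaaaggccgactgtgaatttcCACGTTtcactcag
Elovl5, chr9:77917115-77917363, plus strand, from 250 to 2 bases before the start: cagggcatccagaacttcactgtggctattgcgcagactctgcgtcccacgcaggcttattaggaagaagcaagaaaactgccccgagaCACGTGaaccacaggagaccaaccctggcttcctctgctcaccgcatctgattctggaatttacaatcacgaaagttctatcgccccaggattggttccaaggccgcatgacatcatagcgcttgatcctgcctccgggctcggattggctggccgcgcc
On both strands, 5 motifs were searched: the E-box CACGTG, a variant of it CACGTT, the D-box TTATGTAA, the nuclear receptor core AGGTCA, and the sterol element TCACNCCAC. *Elovl5* held CACGTG at 161 bases before the start, and *Agpat3* held CACGTT at 25 bases before it. AGGTCA was found in *Lpin1*, at 74 bases, and in *Fads6*, at 121 and 69 bases. The table held promoters for 7 of the 10 members, and no match was found in the 250 bases of *Pla2g7*, *Fads2*, and *Fasn*. Of 32851 promoters of the same length, 6.02% held CACGTG, 3.85% CACGTT, 0.819% TTATGTAA, 14% AGGTCA, and 1.05% TCACNCCAC, and a match is a description of the letters and not of binding.

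Values are normalized counts, that is, reads per gene divided by 1 size factor per library, and differences are log2 differences of the normalized count + 1. A gene was called when its limma *P*, adjusted over all genes tested in that tissue by Benjamini-Hochberg, was under 0.05. Reads counted on genes were 9325122 to 41733282 per gastrocnemius library, 36903079 to 50755829 per library of the other tissues, and 6754312 to 8515400 in the GFP experiment. The whole-gene *Arntl* count had a median of 527 in WT (n = 6) at 10 weeks and a mean of 238 ± 39.8 (SD, n = 6) in KO and 232 ± 40.0 (n = 7) in KO+AAV, so this count gives no check of the KO+AAV label. At 40 weeks the library labelled KO replicate 2 held 1039 *Arntl* counts, above the 5 WT libraries (480 to 608), while the other 4 KO libraries held 308 to 395. Since this goes against its label, the 40-week values of the members are given with and without it, and those of the pathway genes as counts. Skeletal muscle markers were present in every gastrocnemius library, at a summed 66895 to 176289 CPM (reads scaled to the same total in every library) for 6 genes. In 2 other KO libraries markers of another tissue were high. Heart KO replicate 2 held hepatocyte markers at a summed 30323 CPM, and white fat KO replicate 2 held epididymis markers at 33071 CPM.

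In gastrocnemius at 40 weeks, 1 of the 10 members differed between WT and KO, *Agpat3*, which was lower in WT, while edgeR and DESeq2 on the recovered reads called *Pla2g7* and *Lpin1* as well. Over all 16199 genes tested, 23.5% were called, 12% higher and 11.5% lower in WT. By edgeR 22.2% of all genes were called and by DESeq2 24.4%. The median WT minus KO difference was −0.40 over the members and 0.01 over all genes. Between WT and KO+AAV, *Agpat3* was again the 1 member called, against 12.5% of all genes. Between KO+AAV and KO, none of the 10 was called, against 0.259% of all genes by limma (34 genes by edgeR, 79 by DESeq2, with 0 members by either), and 1 member had an unadjusted *P* under 0.05, against 10.1% of genes. The plot of log2 differences gives the 3 muscle comparisons side by side, and these share their control libraries.

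**Figure D1:**
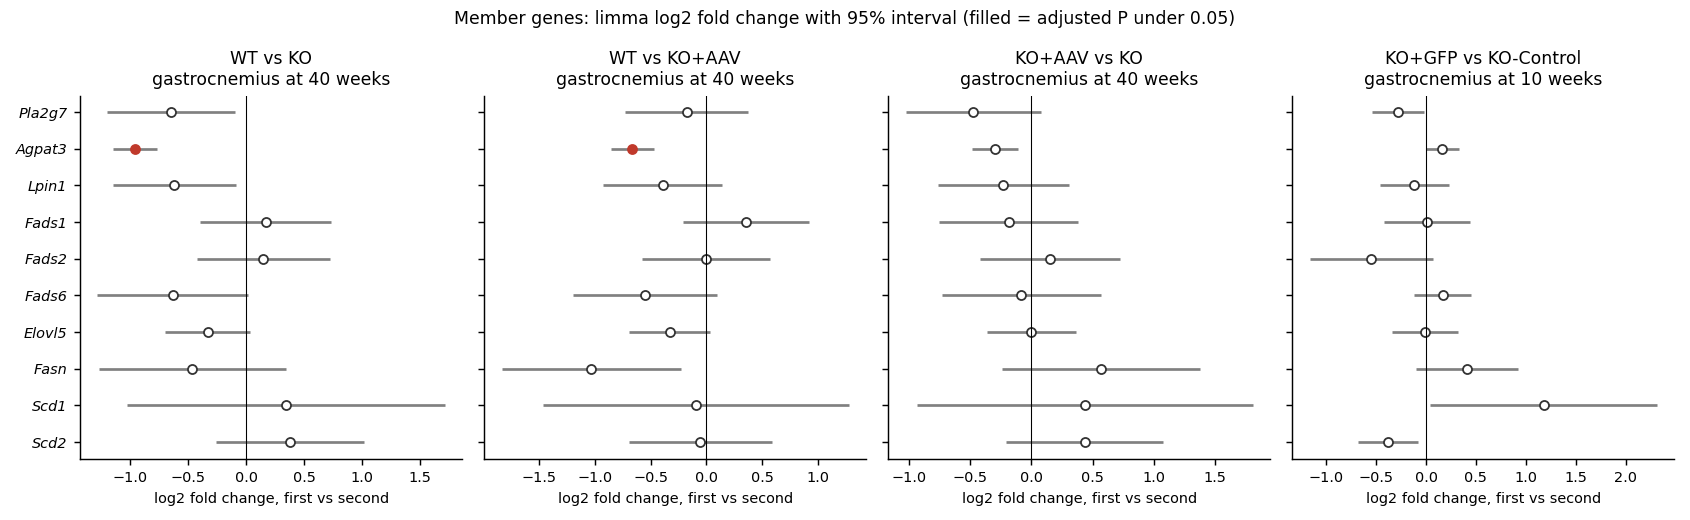
Log2 difference (x axis, first group minus second) with its 95% interval for the 10 members in gastrocnemius, for WT vs KO, WT vs KO+AAV, and KO+AAV vs KO at 40 weeks and for KO+GFP vs KO-Control at 10 weeks. Filled points mark an adjusted *P* under 0.05, which only *Agpat3* reached, at −0.96 (WT vs KO) and −0.66 (WT vs KO+AAV).

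*Agpat3* (ENSMUSG00000001211, chr10:78269178-78352489, minus strand) was the member with the tightest groups. At 40 weeks it stood at 2074, 2513, 1999.9, 2127, and 2346 normalized counts in WT muscle, at 4955, 3691, 4101, 4135, and 4703 in KO, and at 3915, 3913, 2975, 3061, and 3713 in KO+AAV. Every WT library lay below every KO and KO+AAV library, while KO and KO+AAV overlapped through KO replicate 2 and KO+AAV replicates 1, 2, and 5. The means were 2212 ± 212, 4317 ± 507, and 3515 ± 462 (SD, n = 5 each). WT was 1.95-fold below KO (log2 difference −0.96, SE 0.0927, 95% interval −1.15 to −0.77, adjusted *P* = 4.15e-09). WT was 1.58-fold below KO+AAV (−0.66, SE 0.0927, −0.85 to −0.47, adjusted *P* = 7.69e-06). Groups without overlap were seen for 13.6% of all genes in the first of these comparisons and for 11.7% in the second. KO+AAV minus KO was −0.30 (95% interval −0.49 to −0.11), with an unadjusted *P* of 0.00293 and an adjusted *P* of 0.214, so it was not called. Without the library labelled KO replicate 2 the WT minus KO value was −1.02 (adjusted *P* = 2.6e-09) and the KO+AAV minus KO value −0.35 (adjusted *P* = 0.129).

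The 10-week libraries, which chose *Agpat3*, are given as values. WT libraries held 1887 to 2338 normalized counts (median 2129.7), KO+AAV libraries 2579 to 3341 (median 2635), and KO libraries 3401 to 4109.8 (median 3819.9). The 3 groups were separate, with KO+AAV between the others. The log2 differences were −0.82 for WT minus KO, −0.38 for WT minus KO+AAV, and −0.44 for KO+AAV minus KO. Within each sequencing site KO+AAV minus KO was −0.47 (ICBR) and −0.41 (Novogene), and WT minus KO was −0.83 and −0.81. At 10 weeks 6.06%, 2.86%, and 0.574% of all genes had groups without overlap in these 3 comparisons, and nothing is read from the members' values there, since they chose the gene. The change from 10 to 40 weeks was 0.01 in the WT group, 0.15 in KO, and 0.29 with AAV.

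*Pla2g7* (ENSMUSG00000023913, chr17:43568098-43612201, plus strand) was spread widely in KO muscle at 40 weeks. At 40 weeks it stood at 1684, 1001, 1400.0, 1464, and 889 normalized counts in WT, 2651, 1503, 898, 2887, and 2852 in KO, and 2142, 1238, 1013, 1747, and 1212 in KO+AAV. KO replicates 2 and 3 lay among the WT libraries and the other 3 KO libraries lay above every WT library. The means were 1288 ± 332, 2158 ± 905, and 1470.3 ± 463 (SD, n = 5 each). WT minus KO was −0.65 (SE 0.271, 95% interval −1.20 to −0.10, adjusted *P* = 0.0801), which was not called. KO+AAV minus KO was −0.47 (−1.03 to 0.08, adjusted *P* = 0.589), and WT minus KO+AAV was −0.18 (−0.73 to 0.38, adjusted *P* = 0.734). Without KO replicate 3, WT minus KO was −0.93 (adjusted *P* = 0.00728) and passed the threshold. That library held slow fiber markers (8 genes) at a summed 10649 CPM, against at most 2769 in the other KO libraries, and fast 2B fiber markers (5 genes) at 28530 CPM, against at least 59344. The part of fiber type in its *Pla2g7* value was not tested. Without the library labelled KO replicate 2 the value was −0.75 (adjusted *P* = 0.0633), and KO+AAV minus KO was −0.57 (adjusted *P* = 0.501). About 11% of the exon bases of *Pla2g7* are shared with a gene on the other strand, 1700071M16Rik, and reads of the pair cannot be told apart unless the counting used the strand, which is not given in the sources used here.

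At 10 weeks the *Pla2g7* groups stood further apart. WT libraries held 779 to 1172 normalized counts (median 893), KO+AAV libraries 611 to 1915 (median 1327), and KO libraries 2759 to 3564 (median 2938). KO lay above every library of the other groups, and WT and KO+AAV overlapped. The log2 differences were −1.70 for WT minus KO, −1.25 for KO+AAV minus KO (−1.20 at ICBR and −1.30 at Novogene), and −0.45 for WT minus KO+AAV. The WT minus KO difference at 40 weeks minus that at 10 weeks was 1.05, and that of KO+AAV minus KO was 0.78, both given as values since the 10-week contrast chose the gene. From 10 to 40 weeks *Pla2g7* differed by 0.43 for WT, −0.62 for KO, and 0.15 for KO+AAV.

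**Figure D2:**
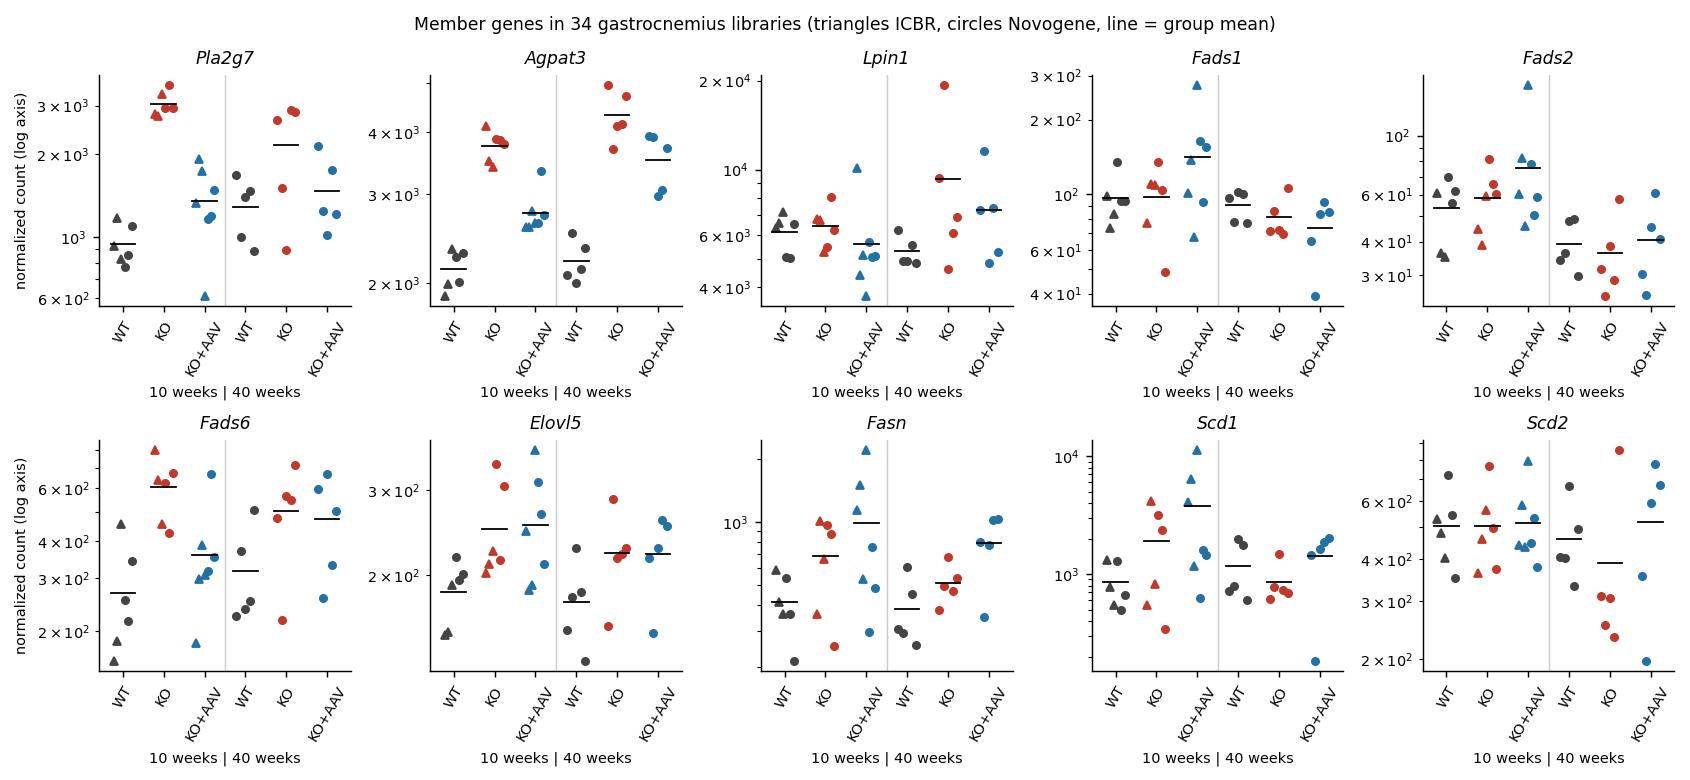
Normalized counts (log y axis) of the 10 members in 34 gastrocnemius libraries, by genotype and age on the x axis, with triangles for ICBR, circles for Novogene, and a line at each group mean. *Agpat3* WT libraries lie below every KO and KO+AAV library at both ages, *Pla2g7* KO libraries lie apart at 10 weeks (2759 to 3564) and not at 40 weeks (898 to 2887), and *Scd1* spans 345 to 11209 at 10 weeks.

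*Lpin1* (ENSMUSG00000020593, chr12:16535669-16610966, minus strand) did not differ between the groups by the test. At 40 weeks it stood at 6273, 4929, 4927, 5561, and 4842 normalized counts in WT, 9389, 19320.0, 4619, 6087, and 6912 in KO, and 7298, 11541, 4829.7, 7439, and 5279 in KO+AAV. The highest value was in the library labelled KO replicate 2. WT minus KO was −0.62 (SE 0.261, adjusted *P* = 0.0832) with that library and −0.31 (SE 0.223, adjusted *P* = 0.37) without it, while it was −0.82 (adjusted *P* = 0.0221) without KO replicate 3. KO+AAV minus KO was 0.08 (adjusted *P* = 0.947) without KO replicate 2. At 10 weeks the means were 6134 ± 879 (n = 6) in WT, 6438 ± 1020.3 (n = 6) in KO, and 5609 ± 2084 (n = 7) in KO+AAV.

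*Fads6* (ENSMUSG00000044788, chr11:115279622-115297663, minus strand) stood at 225, 368, 237, 252, and 508 normalized counts in WT at 40 weeks, 476, 218, 562, 548, and 713 in KO, and 596, 258, 666, 333, and 503 in KO+AAV. The lowest KO value was again the library labelled KO replicate 2, and the groups overlapped. WT minus KO was −0.63 (SE 0.318, adjusted *P* = 0.152) with that library and −0.91 (SE 0.307, adjusted *P* = 0.0343) without it, so the call depends on it. KO+AAV minus KO was −0.08 (95% interval −0.73 to 0.57, adjusted *P* = 0.965), and −0.36 (adjusted *P* = 0.758) without that library. At 10 weeks the libraries ran from 159.6 to 456 in WT (median 236), 424 to 799 in KO (median 629), and 183 to 668 in KO+AAV (median 317). WT minus KO was then −1.22 (−1.36 at ICBR, −1.07 at Novogene) and KO+AAV minus KO −0.79 (−1.11 and −0.41). Over the 34 gastrocnemius libraries *Fads6* moved with the summed slow fiber markers (Pearson's *r* = 0.58, Spearman's rho = 0.58, *r* = 0.57 within group and site), and the part of fiber type in its differences was not tested.

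The polyunsaturated pathway genes were low in muscle, and none was called between genotypes at 40 weeks. *Fads1* (ENSMUSG00000010663, chr19:10182888-10196877, plus strand) stood at 96.4, 77.7, 103, 100.1, and 76.6 normalized counts in WT at 40 weeks, 71.5, 86.0, 72, 69.6, and 106 in KO, and 65.3, 39.3, 83.2, 93.1, and 85.1 in KO+AAV. *Fads2* (ENSMUSG00000024665, chr19:10062765-10101746, minus strand) stood at 34.1, 36.3, 47.8, 48.5, and 29.7 in WT, 31.6, 25.1, 38.3, 28.6, and 57.9 in KO, and 30.3, 25.3, 45.5, 61.0, and 40.7 in KO+AAV. The 3 groups overlapped for both genes. WT minus KO was 0.17 (95% interval −0.40 to 0.73, adjusted *P* = 0.714) for *Fads1* and 0.15 (−0.43 to 0.72, adjusted *P* = 0.754) for *Fads2*. *Elovl5* (ENSMUSG00000032349, chr9:77917364-77984519, plus strand), whose E-box is shown above, held 133 to 228 in WT, 157 to 288 in KO, and 152 to 261 in KO+AAV. Its WT minus KO difference of −0.33 (−0.70 to 0.03) had an adjusted *P* of 0.185, and KO+AAV minus KO was 0.00 (−0.37 to 0.36). Without the library labelled KO replicate 2, WT minus KO was 0.19 for *Fads1*, 0.03 for *Fads2*, and −0.23 for *Elovl5*, and KO+AAV minus KO was −0.16, 0.04, and 0.10, none of them called.

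The desaturases *Fads1* and *Fads2* were the members called between ages, both lower at 40 weeks in KO+AAV, in the fit over both sequencing sites. At 10 weeks the KO+AAV libraries held 67.3 to 275 *Fads1* counts (median 137) and 45.6 to 155 *Fads2* counts (median 60.3), against medians of 83.2 and 40.7 at 40 weeks. The 40-week minus 10-week difference was −0.93 for *Fads1* (SE 0.283, adjusted *P* = 0.0365) and −0.97 for *Fads2* (SE 0.286, adjusted *P* = 0.0305). These were 2 of the 7 members tested, against 8.53% of all genes. The 10-week values in these differences were known when the members were chosen, so the *P* values are not free of that choice. In WT 0 of the 7 were called by limma, edgeR, or DESeq2 and 0 had an unadjusted *P* under 0.05 (0.148% of all genes called), and in KO 0 were called by any of them (8.31%), where 1 had an unadjusted *P* under 0.05, *Fads2* at −0.81 (adjusted *P* = 0.076). The difference of the age changes between genotypes was not called by limma, edgeR, or DESeq2 for any of the 7, and 0 had an unadjusted *P* under 0.05 (0.37% of all genes for WT against KO and 0.00617% for KO+AAV against KO), so the fall is not shown to be particular to KO+AAV. Without the library labelled KO replicate 2 at 40 weeks, 2.91% of all genes were called between ages in KO and 0.148% for the WT against KO difference, with 0 members in either, and *Fads2* in KO was −0.69 (adjusted *P* = 0.217). With the Novogene libraries alone, the site of every 40-week muscle library, *Fads2* was −0.68 (unadjusted *P* = 0.0242) in WT, −0.97 (unadjusted *P* = 0.0022) in KO, and −0.65 (unadjusted *P* = 0.0299) in KO+AAV, none of them called, and *Fads1* in KO+AAV was −0.92 (adjusted *P* = 0.0986). Over both sites *Fads2* in WT was −0.52. Both calls were lost without KO+AAV 10-week replicate 5 or 40-week replicate 1 or 2, with *Fads1* at −0.85, −0.90, and −0.72 and *Fads2* at −0.96, −0.88, and −0.82. The *Fads1* call was also lost without 10-week replicate 7 (−0.87). Macrophage markers (10 genes, 1 of them lower at 40 weeks) summed to 50.9 to 574 CPM in KO+AAV at 10 weeks and 16.3 to 82.1 CPM at 40 weeks, and adipocyte markers (7 genes, none called) to 168 to 799 CPM and 108 to 215 CPM. Their part in the fall was not tested, and in bulk muscle fewer cells of a type and less RNA per cell cannot be told apart.

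The lipogenic genes varied most among libraries. *Scd1* (ENSMUSG00000037071, chr19:44394455-44407879, minus strand) held 716, 786, 1972, 1775, and 600.2 normalized counts in WT at 40 weeks, 612, 779, 1488, 737, and 685 in KO, and 1441, 184, 1628, 1878, and 2009.9 in KO+AAV. *Fasn* (ENSMUSG00000025153, chr11:120805846-120824547, minus strand) held 307, 292, 609, 452, and 256 in WT, 378, 492, 676, 468, and 539 in KO, and 802, 348, 774, 1021, and 1031 in KO+AAV. KO+AAV replicate 2 was the lowest of its group for both genes, and the other 4 KO+AAV libraries lay above every WT and KO library for *Fasn*. WT minus KO+AAV was −1.03 for *Fasn* (SE 0.396, 95% interval −1.84 to −0.23, adjusted *P* = 0.0854) and −1.30 without KO+AAV replicate 2, where it passed the threshold. The *Scd1* differences had wide intervals, and KO+AAV minus KO was 0.44 (−0.94 to 1.81, adjusted *P* = 0.887). *Scd2* (ENSMUSG00000025203, chr19:44293674-44306864, plus strand) held 333 to 667 in WT, 198 to 775 in KO+AAV, and 234 to 309.5 in 4 KO libraries, with KO replicate 5 at 854. WT minus KO was 0.38 (−0.26 to 1.02, adjusted *P* = 0.414). Without the library labelled KO replicate 2, WT minus KO was 0.33 for *Scd1*, −0.47 for *Fasn*, and 0.27 for *Scd2*, and KO+AAV minus KO was 0.42, 0.56, and 0.33, none of them called.

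At 10 weeks the sign of the KO+AAV minus KO estimate differed between the sequencing sites for the lipogenic genes. *Scd1* ranged from 492 to 1328 in WT (median 716), 345 to 4207 in KO (median 1582), and 624 to 11209 in KO+AAV (median 1612). KO+AAV minus KO was 0.85 over both sites, 1.80 at ICBR, and −0.28 at Novogene. For *Fasn* it was 0.36 over both, 0.94 at ICBR, and −0.32 at Novogene, and for *Fads2* 0.31, 0.71, and −0.16. It was 0.26 at ICBR and −0.22 at Novogene for *Scd2*, and 0.16 and −0.11 for *Elovl5*. The direction of these 5 genes therefore did not hold within both sites. At Novogene the SEs were 0.77, 0.47, 0.31, 0.45, and 0.23 in the order given. Each exceeded the size of its difference, so a reversal between sites is not shown.

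In the same 34 libraries the lipogenic and polyunsaturated genes moved with markers of other cells. *Scd1* and the summed adipocyte markers had *r* = 0.76 (rho = 0.65), *r* = 0.64 without the 2 libraries farthest in the markers, and *r* = 0.63 within group and site. *Fads1* and the macrophage markers had *r* = 0.68 (rho = 0.47, 0.58 without the 2 farthest, 0.59 within group and site). This was not particular to macrophage markers. *Fads1* had *r* = 0.61 with the adipocyte markers (0.47, 0.40, and 0.65 in the same order) and 0.40 with the Schwann cell markers (0.49, 0.37, and 0.59). *Fads2* and the adipocyte markers had *r* = 0.68 (0.54, 0.51, and 0.75). The values of *Elovl5* were lower, at *r* = 0.42 with the adipocyte markers (0.28, 0.20, and 0.59) and 0.46 with the macrophage markers (0.40, 0.25, and 0.54). *Scd2* and the Schwann cell markers had *r* = 0.73 (rho = 0.71; 0.67; 0.81), the Schwann cells being the glia of peripheral nerve, where *Scd2* is known to be expressed. *Agpat3* had *r* between −0.44 and 0.42 over the 5 lists, and *Pla2g7* between −0.39 and 0.17. Within group and site, however, *Pla2g7* had *r* = 0.73 with the fast 2B fiber markers and −0.54 with the slow fiber markers. Its values with the macrophage, adipocyte, and Schwann cell markers were then −0.50, −0.38, and −0.14. The libraries share a table and a normalization, the groups differ in these genes, and the values are descriptions.

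**Figure D3:**
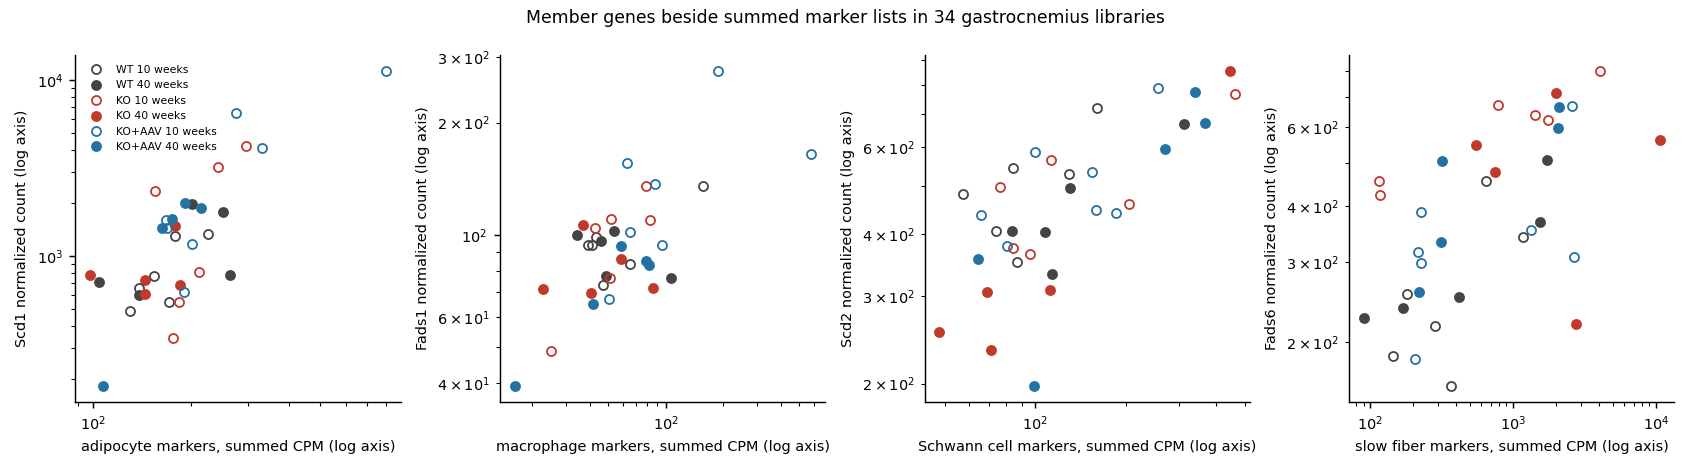
Normalized counts of *Scd1*, *Fads1*, *Scd2*, and *Fads6* (log y axes) against the summed CPM of adipocyte, macrophage, Schwann cell, and slow fiber markers (log x axes) in 34 gastrocnemius libraries, open at 10 weeks and filled at 40 weeks. The KO+AAV 10-week library with the highest adipocyte sum, 799 CPM, is the one with the most *Scd1*, 11209.

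The genes whose level was most like that of *Pla2g7* over the 34 libraries, by Pearson's *r* of log2 values, were *Klhdc2* (*r* = 0.79), *Sema4d* (0.78), and *Ttll7* (0.78). For *Scd1* they were *Fasn* (0.88), *Cdo1* (0.83), and *Retn* (0.82), the last of which encodes resistin, a secreted product of adipocytes. Among the members, *Agpat3* and *Fads6* had *r* = 0.71 (0.55 within group and site), while *Pla2g7* and *Agpat3* had *r* = 0.63 over all libraries and 0.09 within group and site. *Fads1* had *r* = 0.77 with *Fads2*.

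The GFP vector gave no called member. Of 14477 genes tested, 3.09% were called, and 0 of the 10 members were (0 by edgeR and by DESeq2). By limma, 3 members had an unadjusted *P* under 0.05, against 18.7% of all genes. *Agpat3* held 1825, 1880.3, and 1849.7 normalized counts in KO+GFP and 1609, 1608, and 1743 in KO-Control, a difference of 0.16 (95% interval −0.00351 to 0.33, adjusted *P* = 0.278). *Pla2g7* held 1517, 1062, and 1312 in KO+GFP and 1446, 1705, and 1550.4 in KO-Control, a difference of −0.28 (−0.55 to −0.02, adjusted *P* = 0.224). *Agpat3* was higher and *Scd2* lower in every KO+GFP library, and 23.5% of all genes had groups without overlap. *Scd2* held 143, 174, and 186 against 226, 189, and 240.4 (−0.38, −0.68 to −0.08, adjusted *P* = 0.157). *Scd1* held 576, 1979, and 1282 against 1229.9, 214, and 479 (1.18, 0.04 to 2.31, adjusted *P* = 0.249), and without KO-Control replicate 1 it was called (1.82, adjusted *P* = 0.0286). Macrophage markers were higher in KO+GFP for 7 of 10 genes, slow fiber markers for 6 of 8, and Schwann cell markers lower for 3 of 6 tested. The macrophage sums were 86.6 to 135 CPM in KO+GFP and 34.8 to 51.4 in KO-Control, the slow fiber sums 1590.4 to 2071 and 159 to 1020.3, and the Schwann cell sums 56.4 to 77.0 and 135 to 170. The part of these cells in the differences was not tested.

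Around the members, 122 other genes of fatty acid and phospholipid synthesis and turnover were taken by pathway, and 110 were tested in gastrocnemius. Between WT and KO at 40 weeks, 11 were higher and 16 lower in WT (24.5%, against 23.5% of all genes), and without the library labelled KO replicate 2 it was 11 and 15 of 109 (19.7% of all genes). Between WT and KO+AAV 6 were higher and 5 lower (10%, against 12.5% of all genes), and between KO+AAV and KO none was called at either age by limma (0.204% of all genes at 10 weeks and 0.259% at 40 weeks), with 12 and 10 at an unadjusted *P* under 0.05 (9.23% and 10.1% of all genes), none by edgeR, and 1 by DESeq2 at 10 weeks. At 10 weeks 6 of 110 were higher and 9 lower in WT than in KO, against 8% of all genes called. Against KO+AAV, 4 were higher and 4 lower in WT, with 5.15% of all genes called. Both shares at 10 weeks were larger than those of all genes, and this was not tested. In the GFP experiment 4 of 101 were higher and 1 lower, against 3.09% of all genes.

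The share of pathway genes called at 40 weeks was near that of all genes, and the called genes of phospholipid assembly lay in both directions, as did all genes (12% higher and 11.5% lower in WT). Of 9 glycerolipid acyltransferases 3 were higher and 1 lower in WT, among them *Gpat4*, the endoplasmic reticulum enzyme of the first acylation step (827 ± 62.3 in WT, 609 ± 103 in KO, adjusted *P* = 0.000481), and *Lclat1*, which remodels cardiolipin (362 ± 43.0 and 509 ± 67.1, adjusted *P* = 0.00241). Of 20 genes of head-group synthesis 2 were higher and 1 lower. *Pcyt2*, which activates phosphoethanolamine, was 354 ± 39.5 in WT and 564 ± 104 in KO (log2 difference −0.66, adjusted *P* = 0.00269), and *Pcyt1a*, which activates phosphocholine, had a difference of 0.39 (adjusted *P* = 0.0082). Of 8 lysophospholipid acyltransferases, *Lpcat4* was higher in WT (34.8 ± 15.3 and 15.2 ± 4.15, adjusted *P* = 0.00595) and *Mboat1* lower (81.6 ± 15.5 and 158 ± 59.5, adjusted *P* = 0.00807). Of 26 phospholipases 2 were higher and 5 lower, with *Gpcpd1*, a glycerophosphocholine phosphodiesterase of skeletal muscle, at 5596 ± 691 and 2550.4 ± 964 (adjusted *P* = 0.000767) and the lysosomal phospholipase B-like gene *Plbd2* at 501 ± 87.9 and 839 ± 323 (adjusted *P* = 0.00187).

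Of 9 genes of triglyceride synthesis, 2 were lower in WT, and *Lpin3*, a paralog of *Lpin1*, was 51.1 ± 12.8 in WT muscle, 123 ± 37.3 in KO, and 97.0 ± 28.1 in KO+AAV (WT minus KO −1.25, SE 0.255, adjusted *P* = 0.000547). *Plpp1*, a lipid phosphate phosphatase, gave −0.51 (adjusted *P* = 0.018). Of 10 genes of de novo lipogenesis 4 were lower in WT, including the lipogenic protein gene *Thrsp* (162 ± 58.2 and 294 ± 61.7, adjusted *P* = 0.00703) and *Mcat*, of mitochondrial fatty acid synthesis (−0.34, adjusted *P* = 0.0072). Of *Cyb5a* and *Cyb5r3*, the electron donors of the desaturases, *Cyb5a* was higher in WT (191 ± 17.1 and 126 ± 21.6, adjusted *P* = 0.0043) and *Cyb5r3* lower (−0.52, adjusted *P* = 0.035). Of 10 elongation genes *Tecr*, the enoyl-CoA reductase, was lower in WT (4681 ± 668 and 6081 ± 754, adjusted *P* = 0.0291). Of 15 regulators 2 were higher in WT: *Rxra*, the nuclear receptor partner of LXR and PPAR (3711 ± 391 and 2150.2 ± 217, adjusted *P* = 2.3e-05), and *Ppargc1a*, the coactivator PGC-1α (609.8 ± 58.6 and 400.3 ± 134, adjusted *P* = 0.0094). For the genes named with levels, all values are normalized counts, mean ± SD with n = 5.

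Across tissues the members split by level. Levels per exon length (CPM divided by the length of the exons in kilobases) were taken over the KO and KO+AAV libraries at 40 weeks, without KO replicate 2 in heart and in white fat. *Pla2g7* was highest in gastrocnemius at 37.6 ± 15.3 (SD, n = 10), above white fat at 10.6 ± 3.23 (n = 7) with no overlap, and was followed by lung (5.82), heart (2.74), and liver (1.12), each overlapping the next. *Lpin1* was 59.0 ± 13.5 in white fat and 50.7 ± 22.8 in gastrocnemius, which overlapped, and lowest in lung at 5.07. *Agpat3* was similar in heart (37.8), white fat (36.8), liver (31.7), and gastrocnemius (30.5), neighbours that overlapped, and lower in lung at 20.2 ± 1.19. The polyunsaturated pathway genes had their highest means in liver. *Fads1* was 115 ± 25.8 in liver and 0.978 ± 0.242 in gastrocnemius, *Fads2* 117 ± 15.8 and 0.717 ± 0.261, and *Elovl5* 117 ± 32.9 and 3.84 ± 0.748, with the mean of gastrocnemius the lowest of the 5 tissues for each, although its *Fads2* range overlapped that of heart. *Fads6* was highest in liver too (40.0 ± 4.28), with gastrocnemius next (4.52 ± 1.68). *Scd1* reached 4769 ± 3126 in white fat, 1036 ± 709 in liver, and 361 ± 124 in lung, which overlapped in that order, and 14.5 ± 8.37 in gastrocnemius. *Fasn* had the same order for these, at 705 ± 481, 113 ± 49.8, 61.9 ± 26.3, and 3.68 ± 1.53. *Scd2* was highest in lung at 139 ± 27.5, with no overlap with white fat at 47.8 ± 25.7. Tissues were normalized separately, so these levels compare libraries scaled only by their reads. All 40-week gastrocnemius libraries were sequenced at Novogene, and all libraries of the other tissues at ICBR. A difference between gastrocnemius and another tissue therefore cannot be told apart from one between sites.

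**Figure D4:**
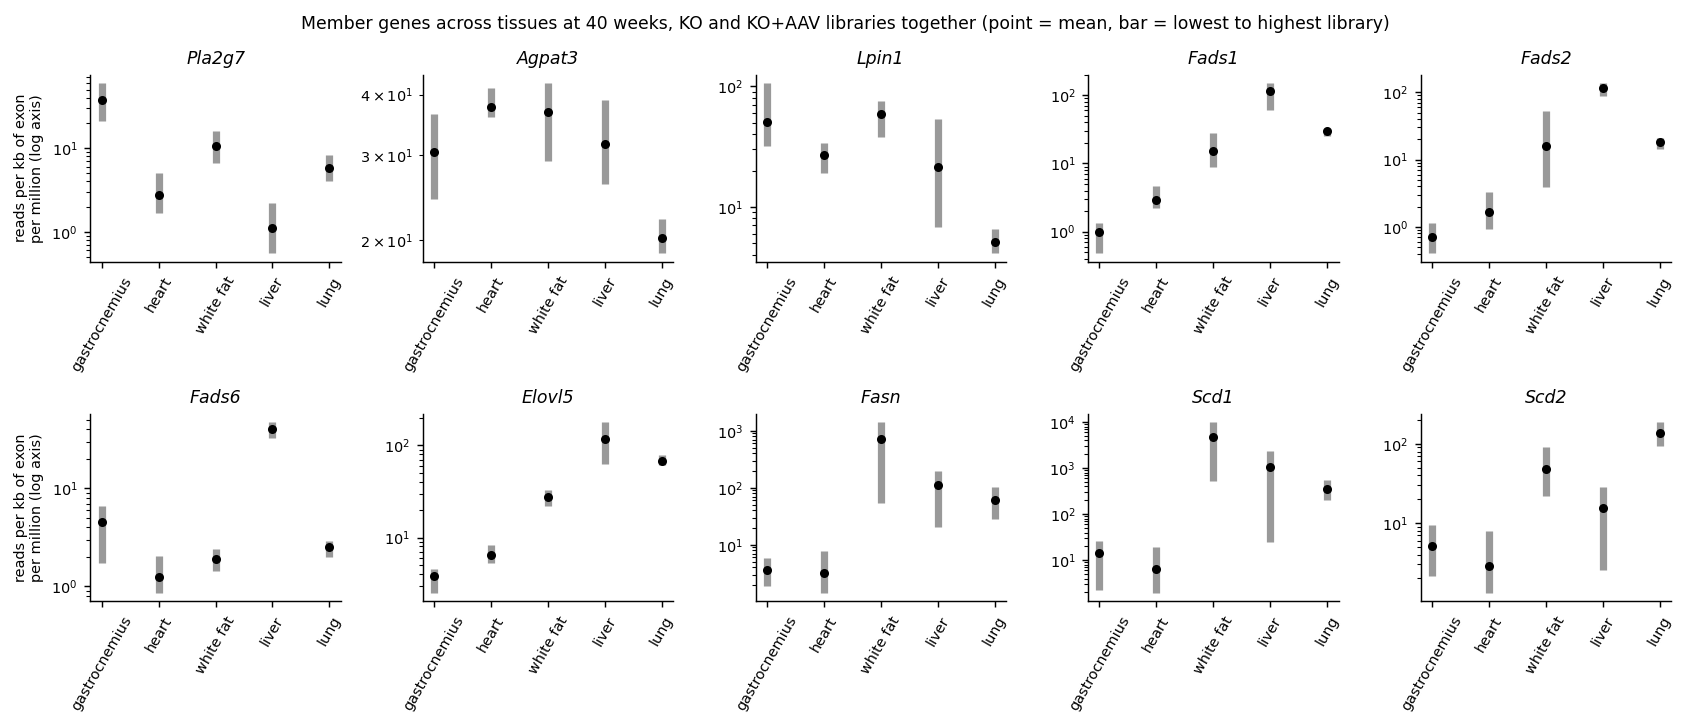
CPM per kilobase of exon (log y axis) for each member in gastrocnemius, heart, liver, white fat, and lung at 40 weeks, KO and KO+AAV libraries together, with a point at the mean and a bar from the lowest to the highest library. *Pla2g7* peaks in gastrocnemius (37.6), *Fads1* and *Fads2* in liver (115 and 117), *Scd1* in white fat (4769), and *Scd2* in lung (139).

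In the other tissues, where KO+AAV was compared with KO at 40 weeks, no member was called by limma or edgeR, with 1 of 10 at an unadjusted limma *P* under 0.05 in liver (*Scd2*), 0 in heart and white fat, and 3 in lung (*Lpin1*, *Pla2g7*, *Scd2*). Over all genes limma called 0 of 16656 in liver (0 by edgeR, 8 by DESeq2, 3.32% at an unadjusted *P* under 0.05), 0 of 18089 in heart (0 and 0, 1.28%), 0 of 21092 in white fat (0 and 1, 1.04%), and 0.0237% of 21072 in lung (4 genes by edgeR and 628 by DESeq2, 11.9%). Of the pathway genes outside the members, limma and edgeR called 0 in each of the 4 tissues, DESeq2 called 3 higher and 1 lower of 120 in lung and 0 in the others, and by limma there were 2 of 112, 1 of 115, 1 of 120, and 16 of 121 at an unadjusted *P* under 0.05.

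In lung, *Lpin1* held 1873, 1734, 2071, and 1792 normalized counts in KO and 2303, 2229, 2748, and 2438 in KO+AAV. Every KO+AAV library lay above every KO library, as for 6.77% of all genes, and the difference was 0.38 (SE 0.0851, 95% interval 0.19 to 0.57) with an unadjusted *P* of 0.0015 and an adjusted *P* of 0.137. *Pla2g7* held 1090.2, 861, 662, and 922 in KO and 680.4, 519, 599, and 611 in KO+AAV, a difference of −0.54 (−0.87 to −0.20, adjusted *P* = 0.214). KO replicate 3 lay within the KO+AAV range for *Pla2g7*. Cardiomyocyte markers (6 genes) summed to 84.4 to 882 CPM in the KO lungs and 1485 to 4674 CPM in the KO+AAV lungs, and macrophage markers to 3439.6 to 4443 CPM and 2587 to 3384 CPM. Adipocyte markers (7 genes, none called) summed to 17.6 to 678 CPM in KO and 59.0 to 930 CPM in KO+AAV, with the highest sum in replicate 3 of each group, which was also the library with the most *Lpin1*. The order did not hold throughout. KO replicate 1, with the lowest sum, held more *Lpin1* (1873) than KO replicates 2 and 4. KO+AAV replicate 2, at 59.0 CPM, held more (2229) than KO replicate 3 at 678 CPM (2071). The part of these cells in the differences was not tested. By DESeq2, *Lpin1* and *Pla2g7* passed the threshold in lung, where it called 2.98% of all genes. They were the 2 members that it called in the 4 tissues.

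In liver, KO+AAV replicate 2 was low for the lipogenic genes. *Scd1* held 333139.5, 450714, 113304, and 115809 normalized counts in KO and 184576, 5311, 249298, and 217488 in KO+AAV, a difference of −1.30 (SE 1.14, adjusted *P* = 0.997) that was 0.03 (SE 0.483) without that library. *Fasn* held 48517 to 82966 in KO and 36995 to 67821 in 3 KO+AAV libraries, with 9623 in replicate 2, and its difference went from −0.83 to −0.23 without it. *Scd2* held 3224, 6023, 3045, and 6345 in KO and 3094, 606, 3214, and 2312 in KO+AAV, with differences of −1.19 and −0.63. In contrast, the interval of the difference was narrow for *Fads2* (−0.32 to 0.22) and *Fads6* (−0.03 to 0.37).

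In heart, the differences of *Scd1*, *Fasn*, *Fads2*, *Fads6*, *Fads1*, and *Elovl5* were among those that were smaller without KO replicate 2. This is the library with hepatocyte markers, in which albumin (*Alb*) stood at 17396 CPM against 3.56 to 4.77 in the other KO hearts. *Scd1* held 1045, 256759, 4136, and 1171 normalized counts in KO and 1383, 599, 433, and 428 in KO+AAV, so that KO+AAV minus KO was −3.26 (adjusted *P* = 0.862) with this library and −1.45 (SE 0.561, adjusted *P* = 1) without it. Without it *Fasn* went from −2.05 to −0.90, *Fads2* from −1.65 to −0.11, *Fads6* from −1.41 to −0.17, *Fads1* from −1.29 to −0.03, and *Elovl5* from −1.05 to −0.04. *Agpat3* and *Lpin1*, which liver and heart hold at more similar levels, differed by 0.00 and −0.16 with it and by −0.04 and −0.17 without it. The part of liver RNA in these differences was not tested. *Scd2* held 354 to 1988 normalized counts in KO hearts and 319 to 932 in KO+AAV hearts.

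In white fat, KO replicate 2, with the epididymis markers, held adipocyte markers at a summed 6309 CPM against 27227 to 35181 in the other KO libraries. *Fads2* held 875, 20567, 7091, and 665 normalized counts in KO and 609, 4450.3, 989.8, and 672 in KO+AAV. KO replicate 3, with the next highest *Fads2* value, held epididymis markers at 21.0 CPM, against at most 0.892 in the other 6 libraries. The *Fads2* difference was −1.39 (adjusted *P* = 0.907), −0.47 (SE 0.994) without KO replicate 2, and 0.60 (SE 0.795) without KO replicates 2 and 3, while without replicate 2 *Fads1* went from −1.0 to −0.50, *Scd2* from −1.13 to −0.58, and *Lpin1* from 0.71 to 0.21. *Scd1* ranged from 216861 to 2362739 in KO and 98866 to 1837526 in KO+AAV, and *Fasn* from 104996 to 749698 and 23287 to 635081, so that the 95% intervals, −2.57 to 2.60 and −2.90 to 2.35, allow large differences in either direction. *Pla2g7* (−0.28, −0.83 to 0.27) and *Agpat3* (0.14, −0.42 to 0.70) had narrower intervals.

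**Figure D5:**
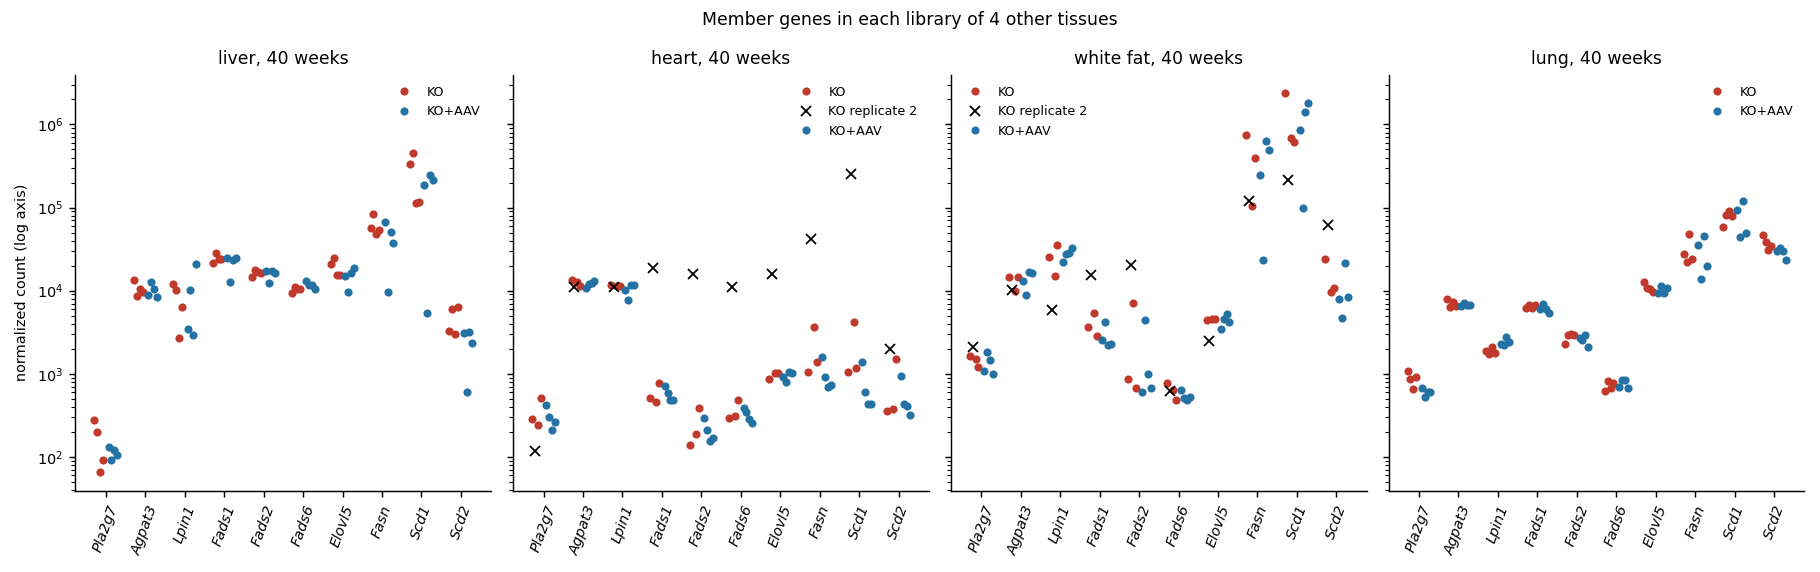
Normalized counts (log y axis) of the members in each KO and KO+AAV library of liver, heart, white fat, and lung at 40 weeks, with KO replicate 2 of heart and of white fat as crosses. In heart that library lies far above the others for *Fads1*, *Fads2*, *Fads6*, *Elovl5*, *Fasn*, and *Scd1*, for which it reaches 256759 against 428 to 4136 in the other hearts.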

How the data were processed

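Poly(A) RNA-Seq of gastrocnemius, liver, heart, white fat, and lung was measured in 72 libraries. The authors aligned reads to GRCm38 (mm10) with HISAT2, counted reads over genes with HTSeq, and scaled each library by its DESeq2 size factor. The deposited values are thus a normalized signal, in a main table and a second table for the GFP experiment. Reads were recovered by dividing each library by its smallest positive value, which was taken as a single read. The results were whole numbers in every library (tolerance 0.01). The annotation release and strand setting are not given in the sources used here. Positions are GENCODE vM21, which held 99.5% of the genes.

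Genes with a mean above 5 were tested with limma (version 3.58.1, R 4.3.3) on log2(value + 1) with an intensity trend. One model held the 34 gastrocnemius libraries, 6 groups and the sequencing site (ICBR or Novogene), and the GFP experiment and each tissue had a model of their own. Adjusted *P* is Benjamini-Hochberg over all genes tested. Fold changes on this scale understate changes of low genes. edgeR (4.0.16) and DESeq2 (1.42.0) on the recovered reads, other pseudocounts and filters, library weights, a replicate block, single sites, and each library left out were alternatives. The scripts were tested on simulated data. A count of n reads carries its own counting error, and the low genes *Fads1* and *Fads2* in muscle are the least precise.

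The members and lists were chosen with earlier results of these data known. Named are the 10 members, from each pathway list the 2 called genes of lowest *P* at 40 weeks in WT vs KO and in KO+AAV vs KO, the 3 genes most correlated with *Pla2g7* and with *Scd1*, *Arntl*, and marker sums. Of 188 listed symbols 187 were matched.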

Additional observations from a re-analysis of the deposited data

Results flagged for a closer look

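In 16 of 140 member and group combinations with 4 to 10 libraries, 1 library stood apart from the rest of its group by Dixon's test, where chance flags about 1 in 20. In heart, KO replicate 2 stood apart for 6 members: *Scd1* at 256759 normalized counts (others 1045 to 4136), *Fasn* at 41792 (1042 to 3663), *Fads1* at 18959 (460.1 to 779), *Elovl5* at 16026 (859 to 1024), *Fads2* at 15697 (139 to 385), and *Fads6* at 11090.1 (291 to 481). In liver, KO+AAV replicate 2 stood apart for *Fads1* at 12731 (others 23349 to 24889.9). In white fat, *Elovl5* was 2484 in KO replicate 2 (others 4380.4 to 4589), and *Fads2* was 4450.3 in KO+AAV replicate 2 (others 609 to 989.8), a library with epididymis markers at a summed 0.341 CPM. In lung, *Fads2* was 2255 in KO replicate 1 (others 2903 to 2978).

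In gastrocnemius at 10 weeks, KO+AAV replicate 6 stood apart for *Agpat3* at 3341 (others 2579 to 2786) and for *Fads6* at 668 (183 to 388), replicate 1 for *Lpin1* at 10121 (3754 to 5691), and replicate 4 for *Fads2* at 155 (45.6 to 82.4). At 40 weeks, KO replicate 3 stood apart for *Scd1* at 1488 (others 612 to 779) and KO replicate 5 for *Scd2* at 854 (234 to 309.5).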

How the results depend on the processing

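The number of members called between WT and KO at 40 weeks was 1 (*Agpat3*), 3 by edgeR, by DESeq2, and with the replicate block (*Agpat3*, *Pla2g7*, *Lpin1*), 2 with library quality weights, and 1 to 3 with 1 library left out. Between WT and KO+AAV it was 1, 2 by DESeq2 and in a fit of those 2 groups alone, 3 with quality weights, and 1 to 2 with 1 library left out. Of all genes, 23.5% were called in the first comparison by limma, 22.2% by edgeR, 24.4% by DESeq2, and 25.3% with the replicate block. In the second, limma called 12.5% and DESeq2 14.1%. The KO+AAV age count of 2 was 0 without the filter on low values (adjusted *P* of 0.0646 for *Fads1* and 0.0546 for *Fads2*) and with Novogene libraries alone, and 0 to 2 with 1 library left out. The KO age count of 0 became 1 without KO 40-week replicate 5, and the GFP count of 0 became 1 without KO-Control replicate 1. In lung the count of 0 was 2 by DESeq2, which called 2.98% of all genes there, and 1 with quality weights. The causes were not tested. No called value changed sign, while the 10-week KO+AAV minus KO differences of *Scd1*, *Fasn*, *Fads2*, *Scd2*, and *Elovl5* were negative with Novogene libraries alone (−0.28, −0.32, −0.16, −0.22, and −0.11). *Pla2g7* had adjusted *P* values of 0.0363 by edgeR, 0.0252 by DESeq2, 0.0139 with weights, and 0.0238 with the replicate block, and *Lpin1* 0.0304, 0.0187, and 0.0339 by edgeR, DESeq2, and the block. The correlation of deviations between same-numbered libraries was over 0.1 in every pair of no set (−0.11 to 0.37, median 0.04, in 40-week gastrocnemius, 0.0063 to 0.018 in the GFP experiment, and −0.38 to 0.58, median 0.44, in white fat, against a median of −0.22 for different numbers there), so the numbers were not used as pairs. The fit without an intensity trend, the age contrasts with 1 library left out, and heart without KO replicate 2 and white fat without KO replicates 2 and 3 were alternatives chosen after seeing the data. Depth limits *Fads2*, at under 100 normalized counts in most muscle libraries.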

Other observations

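Replicate 2 of the KO+AAV group held the lowest *Scd1* value of its group in 4 of 5 tissues at 40 weeks. It stood at 184 normalized counts in gastrocnemius (next 1441), 5311 in liver (next 184576), 98866 in white fat (next 866057), and 44798 in lung (next 49263), while in heart replicates 4 and 3 were lowest at 428 and 433. *Fasn* was also lowest in that replicate in gastrocnemius (348, next 774), liver (9623, next 36995), white fat (23287, next 243399), and lung (13927, next 19741). *Scd2* was lowest there in gastrocnemius (198), liver (606), and white fat (4656). The labels do not say whether replicates of the same number in different tissues came from 1 animal. The lowest *Lpin1* value of the group was in replicate 2 in heart (7752) and lung (2229), and in replicate 3 in gastrocnemius and liver (4829.7 and 2929).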
